A study of Mus musculus with 16 samples.

Results

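Lymphocyte RNA was followed in 16 libraries of mouse aorta and liver through 9 marker genes of B and T cells: Cd79a, Cd79b, Ms4a1, Cd3d, Cd3e, Cd3g, Cd4, Cd8a and Cd2. They are 9 of the 24011 gene symbols in the deposited table. They were chosen by name as textbook markers of these cells. The markers do not mark a single cell type, and they are treated here as a B cell group of 3 genes (Cd79a, Cd79b, Ms4a1) and a T cell group of 6 genes. The tissue came from wild-type female C57BL/6 mice whose ovaries had been removed at 6 to 7 weeks of age, with harvest 1 week after surgery. The tissue was then kept ex vivo at 37 °C for 4 h in culture medium, with estradiol at 10 nM (E2, the active natural form of estrogen) or with ethanol as the vehicle. The groups are E2 aorta, vehicle aorta, E2 liver (pieces from the tip of the major lobe) and vehicle liver, with 4 libraries each. All mice were ovariectomized, so no group carries its own ovarian estrogen. Per the labels, 8 libraries were made from 50 ng of RNA with an Ovation kit, and the other 8 came from poly-A selection of 600 ng of RNA of a single aorta or liver fragment. The series' design text gives only 2 replicates per condition, each pooling tissue of 4 mice.

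B cells carry an antigen receptor made of an immunoglobulin and a signalling pair encoded by Cd79a and Cd79b, and Ms4a1 encodes CD20, a membrane protein of mature B cells. T cells carry a receptor whose signalling complex includes the CD3 delta, epsilon and gamma chains, encoded by Cd3d, Cd3e and Cd3g. Cd4 and Cd8a encode the coreceptors of helper and cytotoxic T cells, which developing T cells of the thymus carry together for a time, and Cd2 encodes an adhesion receptor of T cells that is also found on other lymphocytes. In a normal mouse aorta few lymphocytes lie in the wall, while the outer coat, the surrounding fat and the lymph nodes along the vessel hold more. The liver holds resident T and B cells in its sinusoids and portal tracts.

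Promoter sequences from RefSeq, build GRCm38.p6, matched 5 of the 9 genes (Cd79a, Cd3d, Cd3e, Cd3g and Cd8a) and not Cd79b, Ms4a1, Cd4 and Cd2. Each runs from 250 bases before to 50 bases after the gene's start. The core AGGAAGT, recognised by ETS factors, which are abundant in lymphocytes, was found in 3 of the 5, and in 9.35% of 32851 mouse promoters of the same length, with both strands searched. These 3 promoters are shown because they cover a B cell and a T cell receptor chain, and the capitals mark the ETS core, read on either strand. The matches lie 55 bases before the start in Cd79a, at chr7:24897247-24897546 on the plus strand, 199 bases before it in Cd3d, at chr9:44981536-44981835 on the plus strand, and 18 bases before it in Cd3e, at chr9:45009562-45009861 on the minus strand.
Cd79a: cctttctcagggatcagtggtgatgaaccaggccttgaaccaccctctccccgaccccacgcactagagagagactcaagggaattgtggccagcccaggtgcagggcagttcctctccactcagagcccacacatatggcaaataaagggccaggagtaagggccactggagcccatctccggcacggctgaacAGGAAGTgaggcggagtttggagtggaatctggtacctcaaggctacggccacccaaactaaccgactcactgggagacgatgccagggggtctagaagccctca
Cd3d: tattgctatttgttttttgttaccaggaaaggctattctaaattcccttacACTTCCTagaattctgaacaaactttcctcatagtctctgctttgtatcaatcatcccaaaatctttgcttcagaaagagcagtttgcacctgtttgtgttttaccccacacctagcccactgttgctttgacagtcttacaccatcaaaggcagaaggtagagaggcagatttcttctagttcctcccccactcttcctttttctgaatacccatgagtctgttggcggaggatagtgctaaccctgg
Cd3e: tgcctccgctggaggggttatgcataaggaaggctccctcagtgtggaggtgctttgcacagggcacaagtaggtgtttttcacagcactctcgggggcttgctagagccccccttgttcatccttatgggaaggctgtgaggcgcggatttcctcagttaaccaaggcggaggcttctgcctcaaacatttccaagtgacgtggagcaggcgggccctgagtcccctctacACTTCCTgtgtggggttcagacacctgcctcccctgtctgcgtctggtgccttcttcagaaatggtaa

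None of the 5 promoters held the octamer ATGCAAAT (1.74% of mouse promoters hold it), the palindromic estrogen response element (0.07%), its core AGGTCA (16.3%) or the TATA box TATAAA (13.6%). A motif match describes these windows only and was not tied to any measured difference. In the RefSeq gene order Cd3g, Cd3d and Cd3e are direct neighbours on chromosome 9, Cd8a lies next to Cd8b1, which encodes the other CD8 chain, and Cd4 next to Lag3. No source used here states whether counting used strand, and reads from overlapping genes on opposite strands cannot be told apart.

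Each library is called by the suffix of its column, o1, o2, n1 or n2, and values are given in that order. No label explains the suffix, and whether o and n are the Ovation and poly-A libraries is not stated. Reads counted to genes ran from 3896733 to 19823982 per library, and 3 counts, the limit that a count of 0 allows, equal 0.113 to 1.10 CPM. CPM are counts scaled to 1000000 reads, on library sizes adjusted by TMM (the trimmed mean of M values), and intervals and limits on counts cover counting error only. Smooth muscle genes summed to between 10313 and 33204 CPM in aorta libraries and between 185 and 481 CPM in liver libraries. Hepatocyte genes summed to between 62.2 and 563 CPM in aorta libraries and between 62163 and 188962 CPM in liver libraries, so the tissue labels fit these markers.

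The 9 markers together held little of each library. Their summed level was 23.8, 30.5, 36.2 and 15.5 CPM in E2 aortas, against 12.2, 90.3, 15.3 and 155 CPM in vehicle aortas. The sums were 25.6, 29.5, 27.2 and 52.1 CPM in E2 livers, against 35.7, 39.5, 52.2 and 73.7 CPM in vehicle livers. On this scale vehicle aortas thus held both the highest pair of all 16 libraries (n2 and o2) and the lowest pair (o1 and n1). The sums of vehicle aorta rested on 2185 reads in n2 and 74 in o1, and the 4 E2 aortas lay inside that range of levels. On plain library totals, without TMM scaling, the E2 aortas held 25.03, 24.96, 56.5 and 25.5 CPM, and the vehicle aortas 12.2, 78.3, 23.3 and 269 CPM, so the same 2 vehicle libraries were highest on both scales. Vehicle liver n2 was close to vehicle aorta o2 there, at 78.2 CPM, and above it (82.7 against 81.1) with precursor ribosomal RNA, Rn45s, left out of the totals. The lowest pair did not hold on plain totals, where the E2 livers o1 (19.2 CPM) and n1 (21.5 CPM) lay below vehicle aorta n1. In a piece of tissue, fewer lymphocytes and less RNA per lymphocyte cannot be told apart.

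**Figure D1:**
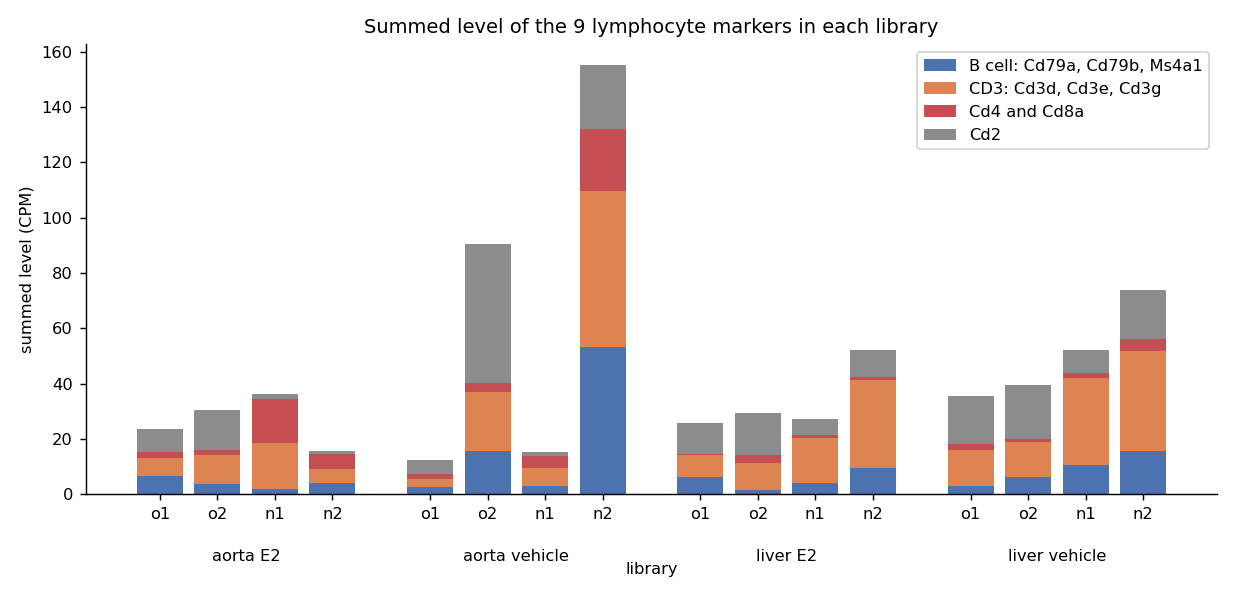
Summed level of the 9 markers in CPM (stacked bars, linear axis from 0) in each of the 16 libraries, by group and suffix, split into B cell genes, CD3 genes, Cd4 with Cd8a, and Cd2. On this scale the vehicle aortas n2 (155 CPM) and o2 (90.3 CPM) stand above every other library, and the vehicle aortas o1 (12.2 CPM) and n1 (15.3 CPM) are the lowest.

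The B cell genes summed to 6.45, 3.79, 2.08 and 3.96 CPM in E2 aortas, against 2.81, 15.6, 2.89 and 53.1 CPM in vehicle aortas. The T cell genes, Cd2 among them, summed to 17.3, 26.8, 34.1 and 11.6 CPM in E2 aortas, against 9.41, 74.7, 12.4 and 102 CPM in vehicle aortas, and so held the larger part of the high values in vehicle n2 and o2. Cd79a stood at 4.55, 1.41, 0.794 and 1.75 CPM in E2 aortas, against 0.661, 9.48, 1.58 and 30.6 CPM in vehicle aortas. Its values in vehicle n2 and o2 were above every E2 library, its value in vehicle o1 was below all of them, and the groups overlapped. Cd79b, its partner chain, stood at 0.733, 0.743, 1.21 and 2.13 CPM in E2 aortas, against 2.15, 2.62, 1.15 and 20.6 CPM in vehicle aortas. Only vehicle n2 was far from the rest, and vehicle n1 lay inside the E2 range. Ms4a1 stood at 1.17, 1.64, 0.0756 and 0.0761 CPM in E2 aortas, against 0, 3.55, 0.158 and 1.99 CPM in vehicle aortas. The groups overlapped, and the count of 0 in vehicle o1 allows up to 0.495 CPM.

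The CD3 genes were highest in vehicle n2. Cd3d stood at 1.76, 2.60, 6.54 and 2.17 CPM in E2 aortas, against 0.495, 7.91, 2.42 and 28.9 CPM in vehicle aortas. Cd3e stood at 1.91, 3.42, 4.73 and 1.64 CPM in E2 aortas, against 0.330, 4.42, 1.82 and 15.5 CPM in vehicle aortas. Cd3g stood at 3.08, 4.46, 5.18 and 1.33 CPM in E2 aortas, against 1.98, 9.13, 2.30 and 12.1 CPM in vehicle aortas. For each CD3 gene vehicle n2 was the highest aorta and E2 n1 the highest of the E2 aortas, and the groups overlapped.

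The coreceptor genes followed another order. Cd4 stood at 0.440, 0.743, 8.21 and 2.70 CPM in E2 aortas, against 0.495, 1.22, 1.98 and 11.2 CPM in vehicle aortas. Cd8a stood at 1.76, 0.818, 7.79 and 2.70 CPM in E2 aortas, against 1.32, 1.92, 2.45 and 11.2 CPM in vehicle aortas. Vehicle n2 and E2 n1 were the highest aortas for both genes, the o libraries of both groups were low, and the groups overlapped. The reads of Cd4 and Cd8a were close to equal in the n aortas, at 217 and 206 in E2 n1, 71 and 71 in E2 n2, 50 and 62 in vehicle n1, and 158 and 158 in vehicle n2. Cd2 stood at 8.36, 14.7, 1.63 and 1.03 CPM in E2 aortas, against 4.79, 50.1, 1.46 and 22.9 CPM in vehicle aortas. Vehicle o2 was the highest aorta for Cd2, as it was for Ms4a1, and the groups overlapped.

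**Figure D2:**
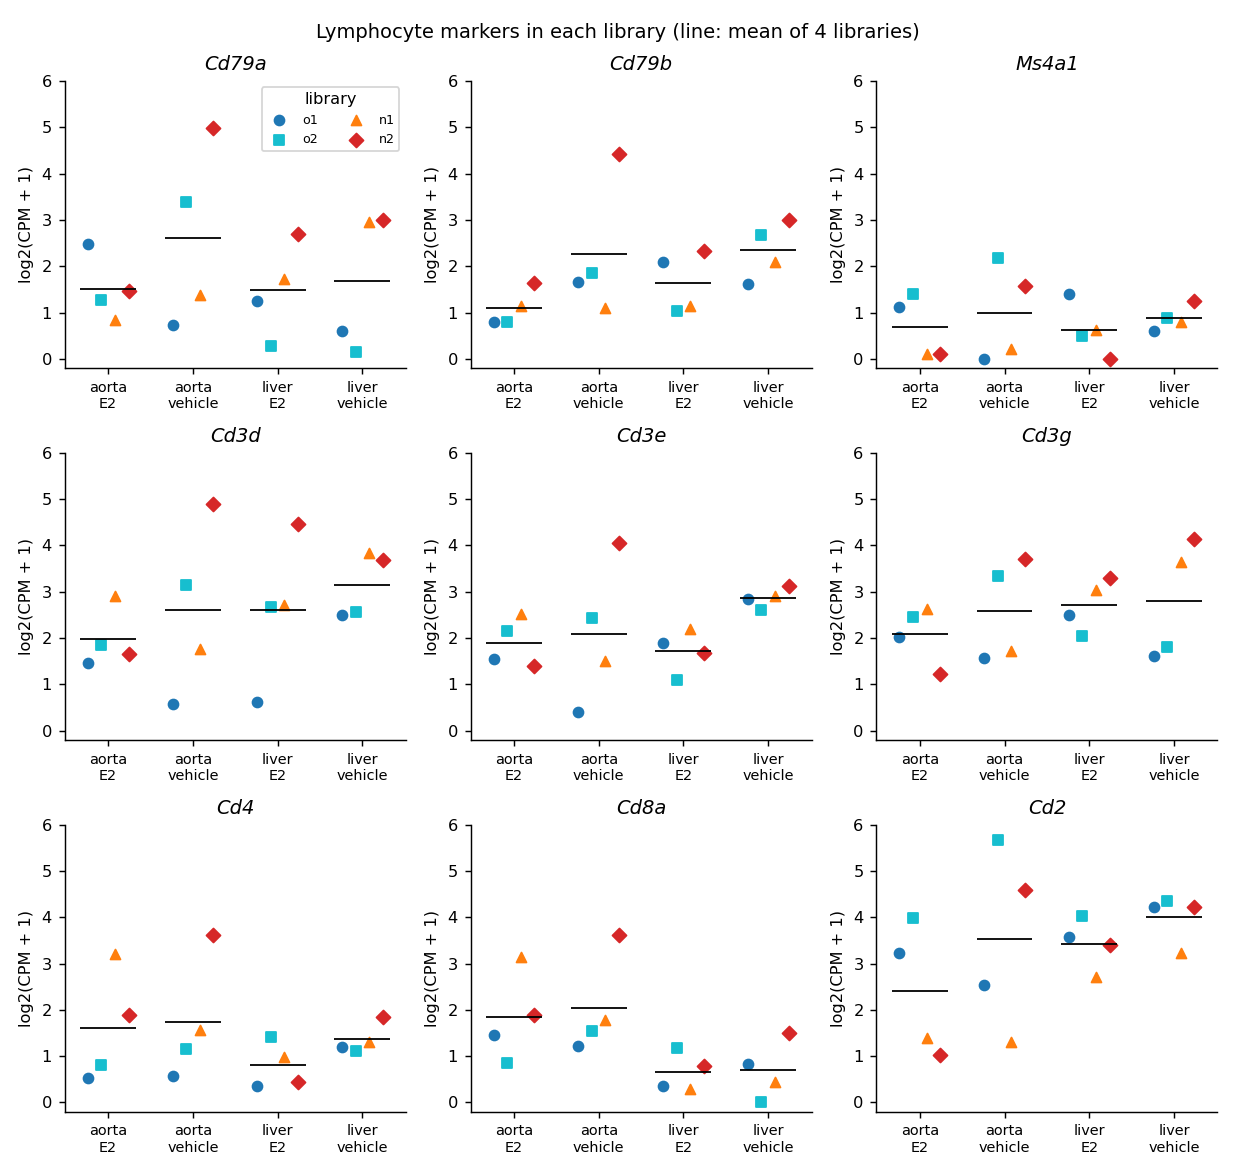
Level of each of the 9 markers as log2(CPM + 1) in each library, by group, with the suffix as colour and shape and the mean of 4 libraries as a line. In vehicle aorta n2 is the highest library for 7 of the 9 genes and o2 for Ms4a1 and Cd2, and in E2 aorta the n1 library is the highest for Cd3d, Cd3e, Cd3g, Cd4 and Cd8a.

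The mix of lymphocyte transcripts differed between libraries as well as their sum. B cell genes made up 34.3% of the marker reads in vehicle aorta n2 (749 of 2185 reads, exact 95% interval 32.3% to 36.3%) and 17.3% in vehicle aorta o2 (269 of 1553, 15.5% to 19.3%). They made up 5.75% in E2 aorta n1 (55 of 956 reads, 4.36% to 7.42%), whose marker reads were mostly CD3, Cd4 and Cd8a. Cd2 made up 55.4% of the marker reads in vehicle aorta o2 (861 of 1553, 52.9% to 57.9%) and 14.8% in vehicle aorta n2 (323 of 2185, 13.3% to 16.3%). The suffix letter moved with this mix: Cd2 held between 35.2% and 55.4% of the marker reads in the 8 o libraries and between 4.50% and 23.9% in the 8 n libraries. Its part in the differences between single libraries was not tested.

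E2 was compared with vehicle in aorta to ask whether the hormone changed these transcripts within 4 h. None of the 9 markers passed the threshold of an adjusted p under 0.05, beside 0% of the 13698 genes tested (edgeR quasi-likelihood test, Benjamini-Hochberg adjusted, with a batch term for o1, o2 and n). All 9 had lower fitted values with E2, with a median log2 fold change of −1.39, against −0.01 over all genes tested, of which 51.3% were lower. The 9 genes were read in the same 8 libraries, so their directions are not independent of each other. None of the 9 had groups that did not overlap, which 0.431% of all genes tested had. At an unadjusted p under 0.05 stood 1 of the 9, against 3.61% of the genes tested (495 genes), and DESeq2 and limma voom called none of the 9 either.

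Cd79a and Cd79b had the lowest fitted values of the 9, followed by Cd2 and Ms4a1. Cd79a differed by −2.47 ± 1.23 (log2 fold change ± SE), at 2.13 ± 1.66 CPM in E2 aortas and 10.6 ± 13.9 CPM in vehicle aortas (SD, n = 4 each). Cd79b differed by −2.37 ± 0.82, at 1.20 ± 0.656 CPM in E2 aortas and 6.62 ± 9.32 CPM in vehicle aortas (SD, n = 4 each), with an unadjusted p of 0.0177 and an adjusted p of 1.00 (edgeR quasi-likelihood test, Benjamini-Hochberg adjusted). For both genes the SD over the vehicle libraries was larger than their mean. Ms4a1 differed by −1.52 ± 1.12 and Cd2 by −1.98 ± 0.92. The CD3 genes differed by −1.39 ± 0.84 (Cd3d), −0.70 ± 0.80 (Cd3e) and −0.82 ± 0.63 (Cd3g) on the log2 scale. Cd4 differed by −0.42 ± 0.63 and Cd8a by −0.47 ± 0.58, both smaller than their SE. The adjusted p was 1.00 for every one of the 9 (edgeR quasi-likelihood test, Benjamini-Hochberg adjusted).

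Set against the vehicle library of its own suffix, each E2 aorta gave a different value. The median difference of the 9 markers in log2(CPM + 1) was 0.69 in o1, −0.89 in o2, 0.91 in n1 and −2.65 in n2. All 9 were lower with E2 in o2 and in n2, while 2 of 9 were lower in o1 and 2 of 9 in n1. None of the 9 moved the same way in all 4 suffixes, which 14.3% of the genes tested did. Cd79a was lower in o2 (−2.12), n1 (−0.53) and n2 (−3.52) and higher in o1 (1.74), and Cd4 was higher only in n1 (1.63). The suffix was taken to pair the aorta libraries as an assumption that no label states, and with it as a replicate block the median was −0.91 and still none of the 9 passed, while the number of genes called over the whole table was 12 (11 higher and 1 lower) against 0 without the block.

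**Figure D3:**
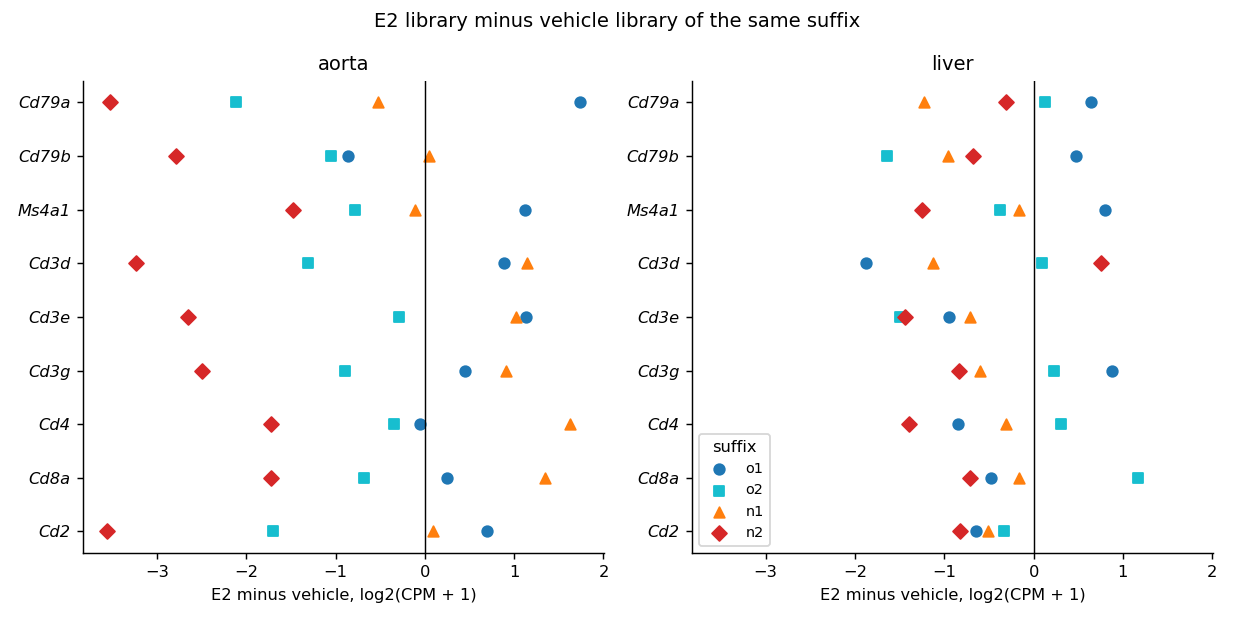
E2 library minus vehicle library of the same suffix, in log2(CPM + 1) for each marker, in aorta (left) and liver (right), with zero as a line. In aorta the n2 points lie between −3.56 and −1.47 and the o1 and n1 points lie mostly above zero. In liver, where the suffix was not read as a pairing, the points lie between −1.87 and 1.17, and Cd3e and Cd2 are below zero in all 4 suffixes.

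The fitted aortic values moved with single vehicle libraries, and those of the CD3 genes, Cd4 and Cd8a changed sign. Those of Cd79a, Cd79b, Ms4a1 and Cd2 stayed below zero whichever single library or suffix was left out. Their highest values were −0.43, −0.65, −0.16 and −0.52. Without the vehicle aorta n2 the median of the 9 markers was 0.01, with 5 higher and 4 lower: Cd3d stood at 0.12, Cd3e at 0.61, Cd3g at 0.01, Cd4 at 0.64 and Cd8a at 0.32, all log2 fold changes. Without both n2 libraries the median was 0.22. Without the vehicle aortas n2 and o2, a choice made after their levels were seen, the median was 0.85 with 8 of 9 higher, and Cd79b alone stayed below zero, at −0.10. That fit kept only the vehicle aortas o1 and n1, the lowest of the vehicle aortas, so higher values with E2 were largely set by the choice. In it E2 o2 was alone in its batch level and did not inform the E2 term. No marker passed the threshold in any of these fits. Within the o libraries alone the median of the 8 markers tested was −0.52 with 6 lower, and within the n libraries alone it was −1.73 with 8 of 8 lower.

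**Figure D4:**
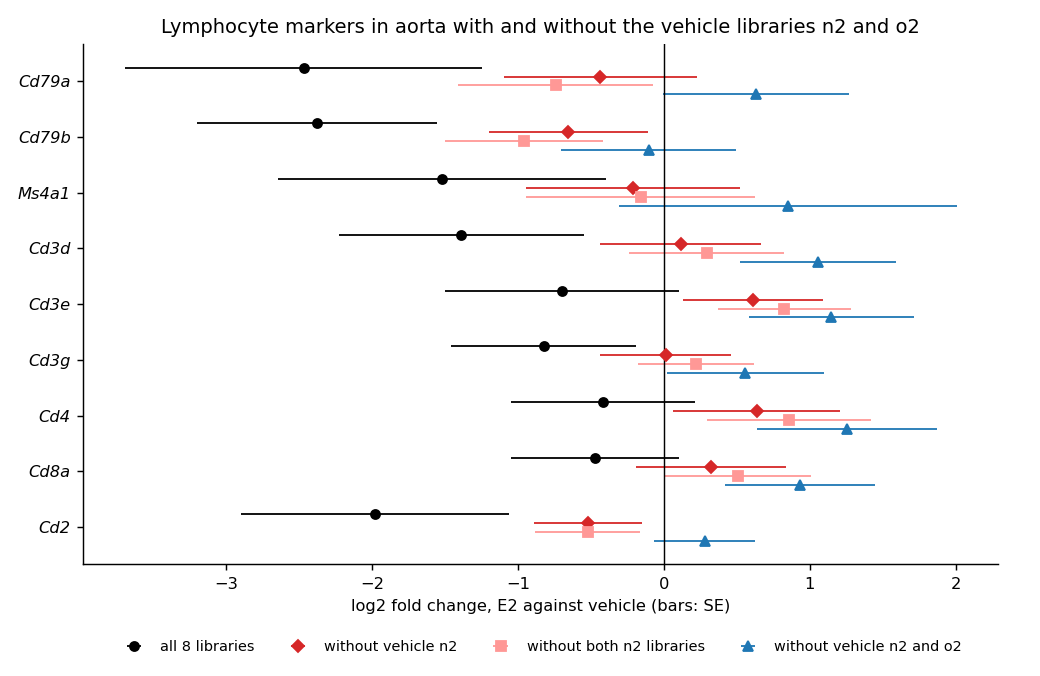
Log2 fold change of E2 against vehicle in aorta for each marker, with SE as bars, from all 8 libraries and without the vehicle library n2, without both n2 libraries, or without the vehicle libraries n2 and o2. With all 8 libraries every point is below zero. Without the vehicle libraries n2 and o2 every point except Cd79b (−0.10) is above zero, in a fit that keeps only the lowest vehicle libraries, o1 and n1.

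Leaving out these libraries also moved the call of other genes in the aorta. With all 8 libraries none of 13698 genes was called. Without the vehicle aorta n2 the same test called 17 genes, of which 12 were higher and 5 lower with E2, and without both n2 libraries it called 35 (24 higher and 11 lower). With the mean of the markers in each library as a further covariate it called 7 genes (6 higher and 1 lower), markers not counted. Without the vehicle aortas n2 and o2 it called 0, at 492 genes with an unadjusted p under 0.05, against 495 with all 8 libraries. None of the 9 markers is among any of these calls. How far the lymphocyte signal itself, and not another property of the library n2, moved these counts was not tested.

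Many, not all, of the other lymphocyte and lymphoid genes named here were highest in vehicle n2. The 16 other B cell genes listed summed to 22.4, 30.2, 11.1 and 13.4 CPM in E2 aortas, against 15.7, 94.4, 12.6 and 274 CPM in vehicle aortas. Among them Cd37, which encodes a tetraspanin of mature B cells, stood at 1.76, 1.26, 2.69 and 3.04 CPM in E2 aortas, against 1.65, 4.71, 3.37 and 55.0 CPM in vehicle aortas. Vehicle n2 stood far above the rest for Cd37. Bank1, which encodes a scaffold protein of B cell receptor signalling, stood at 5.13, 9.59, 0.416 and 0.380 CPM in E2 aortas, against 3.30, 29.4, 0.554 and 5.39 CPM in vehicle aortas. It was highest in vehicle o2, and its vehicle n2 value lay inside the range of the E2 aortas. Glycam1, which encodes a mucin that lymph node venules use to bind lymphocytes, stood at 6.01, 3.27, 0.0378 and 0 CPM in E2 aortas, against 0, 20.4, 1.27 and 422 CPM in vehicle aortas. Ltb, which encodes lymphotoxin beta, a cytokine of lymphoid organs, stood at 1.32, 0.0743, 9.12 and 4.38 CPM in E2 aortas, against 0.330, 1.34, 4.67 and 68.0 CPM in vehicle aortas. Ccr7, which encodes a receptor that guides lymphocytes into lymph nodes, stood at 6.74, 2.16, 3.90 and 2.78 CPM in E2 aortas, against 4.29, 13.7, 5.11 and 34.3 CPM in vehicle aortas. All 3 of these lymphoid genes were highest in vehicle n2. Of the 11 lymphoid homing and organ genes listed, Ccl19 and Ccl21a, which encode lymph node chemokines and were picked out after their values were seen, had no counts in any of the 16 libraries. The hemoglobin genes Hba-a1, Hba-a2 and Hbb-b2 had none either, while the erythroid gene Alas2 had 171 to 6127 reads per library. Whether reads of these symbols could be counted here was not tested, so the zeros are not read as absence.

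The 19 other T cell genes listed summed to 107, 153, 99.9 and 34.7 CPM in E2 aortas, against 111, 214, 40.6 and 214 CPM in vehicle aortas, and the single genes did not share 1 order. Cd247, which encodes the zeta chain of the T cell receptor complex, stood at 50.3, 88.6, 11.2 and 5.52 CPM in E2 aortas, against 60.3, 83.8, 7.01 and 10.4 CPM in vehicle aortas. It was higher in every o aorta than in every n aorta, and highest in E2 o2. Tcf7, which encodes a transcription factor of T cells, stood at 20.97, 11.1, 15.8 and 4.87 CPM in E2 aortas, against 16.02, 24.8, 6.02 and 16.2 CPM in vehicle aortas, with vehicle o2 as the highest. Lck, which encodes the kinase of the T cell receptor's coreceptors, stood at 2.93, 1.64, 20.8 and 6.92 CPM in E2 aortas, against 3.30, 4.48, 5.78 and 45.0 CPM in vehicle aortas. Dntt, which encodes the enzyme that adds bases to receptor genes in developing lymphocytes, stood at 2.64, 1.41, 16.2 and 5.17 CPM in E2 aortas, against 2.31, 2.62, 5.27 and 23.3 CPM in vehicle aortas. Vehicle n2 and E2 n1 were the highest aortas for both genes, as they were for Cd4 and Cd8a. Rag1, which encodes a part of the recombinase that cuts those genes, stood at 12.8, 5.43, 18.5 and 2.51 CPM in E2 aortas, against 9.74, 4.54, 5.46 and 6.10 CPM in vehicle aortas. For Rag1 vehicle n2 was not above the other aortas, and E2 n1 was the highest. Dntt was not particular to aorta, with a mean of 10.9 CPM over the liver libraries against 7.36 CPM over the aorta libraries. The mean of Rag1 was 0.0459 CPM in liver and 8.12 CPM in aorta. Which cells the Dntt reads came from was not tested. Of the 5 thymic epithelium genes listed, Ccl25 alone had a mean of at least 1 CPM in aorta.

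**Figure D5:**
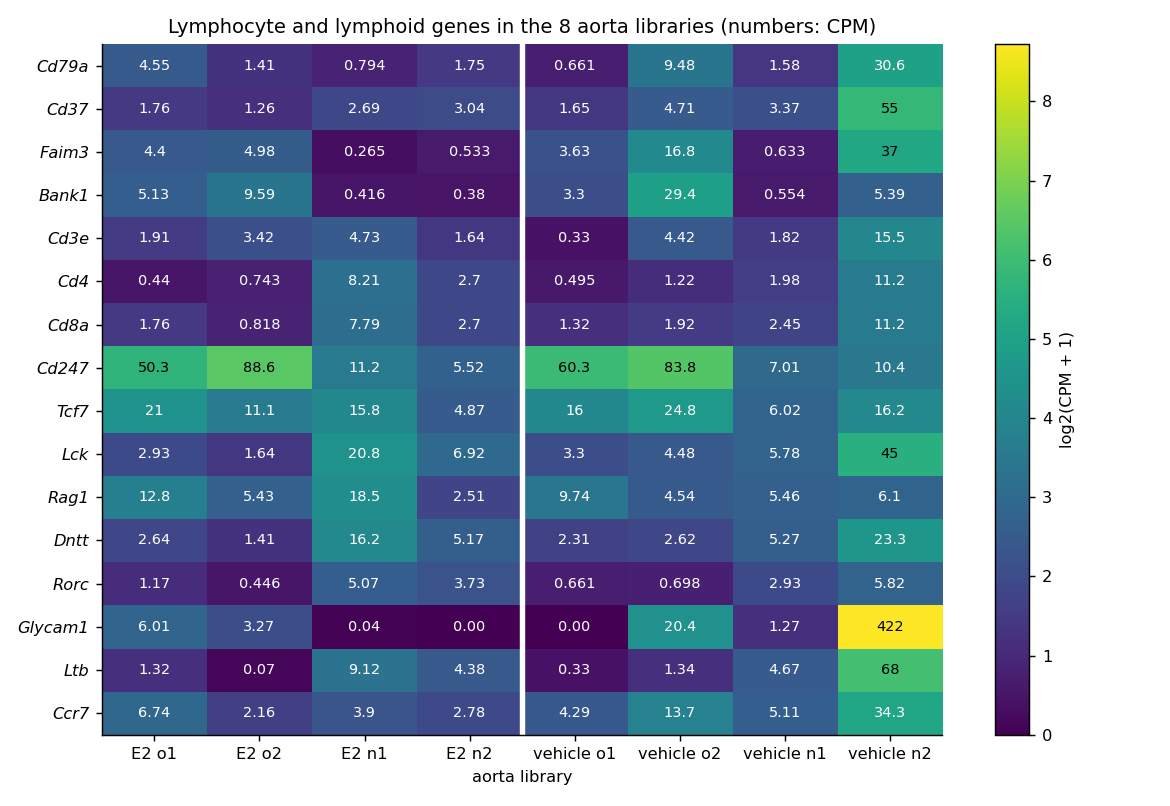
Levels of 16 lymphocyte and lymphoid genes (4 of the markers and the 3 genes with the highest mean CPM of 4 lists) in the 8 aorta libraries, with the CPM printed in each cell and the colour on a log2(CPM + 1) scale, E2 libraries on the left and vehicle libraries on the right. Vehicle n2 is the highest column for 12 of the 16 genes, with Glycam1 at 422 CPM, and not for Bank1, Cd247, Tcf7 and Rag1. The markers shown, Cd79a, Cd3e, Cd4 and Cd8a, are all highest there. Ms4a1 and Cd2 are not shown and are highest in vehicle o2, so the count depends on the markers chosen. E2 n1 is high for Lck, Cd4, Cd8a, Dntt and Rag1 and low for Cd79a, at 0.794 CPM.

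By group of genes, most immune lists had low fitted values in the aortic comparison, without calls, and the T cell development genes did not, with 3 of 5 lower, a median log2 fold change of −0.03 and Rag1 at 0.58. All 12 other B cell genes that were tested were lower with E2 (median log2 fold change −2.64), as were all 17 other T cell genes (−0.93), all 21 antigen receptor signalling genes (−0.74), all 6 lymphoid homing and organ genes (−1.88) and all 11 pan-leukocyte genes (−0.75). Of 8 dendritic cell and MHC class II genes 7 were lower (−1.11), of 14 macrophage genes 12 (−0.09), and of 24 cell cycle genes 22 (−0.34). All 3 NK and cytotoxic cell genes (−1.22) and all 6 neutrophil genes (−0.75) were lower. Adipocyte genes had a median of 0.25 with 2 of 5 lower, and erythroid genes a median of 0.10 with 1 of 3 lower. Smooth muscle genes had a median of 0.02 with 2 of 9 lower, and endothelial genes a median of 0.02 with 2 of 6 lower. Hepatocyte genes were lower in 6 of 6 (−0.85). None of the genes of any list passed the threshold over all genes. The lists share genes with one another and were read in the same 8 libraries.

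Without the vehicle aorta n2 the medians of most lymphocyte lists lay nearer to zero, while that of the T cell development genes was 0.37 with 1 of 5 lower. Other T cell genes stood at 0.08 with 6 of 17 lower, cell cycle genes at 0.05 with 11 of 24 lower, and other B cell genes at −0.66 with 8 of 12 lower. The antigen receptor signalling genes stood at −0.21, the lymphoid homing and organ genes at −0.49 and the pan-leukocyte genes at −0.18. The hepatocyte genes stayed at −0.73 with 6 of 6 lower, and the smooth muscle genes stood at 0.10.

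Across the 8 aorta libraries, the gene whose pattern lay nearest to the mean of the 9 markers was Traf3ip3, with a root-mean-square difference of 0.22 in centred log2(CPM + 1), among 12569 candidate genes. The mean of the markers itself varied by 0.88 on that scale. Next came Bin2 (0.27), Gpr132 (0.30), the Fc receptor-like gene Fcrl1 (0.30), Ly6k (0.31), the phosphatase gene Ptpn6 (0.31), A630001G21Rik (0.32), Tnfrsf18 (0.32), Pou2af1, which encodes a transcriptional coactivator of B cells (0.33), and Psd4 (0.33). Traf3ip3 stood at 2.05, 2.38, 3.06 and 1.14 CPM in E2 aortas, against 1.32, 4.88, 1.90 and 9.93 CPM in vehicle aortas. Its order over the vehicle aortas was that of the marker sum, which picking the nearest gene in these same libraries favours. The points share their libraries and depth.

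In liver, 6 of the 9 markers were tested, and Ms4a1, Cd4 and Cd8a were too low to pass the filter. None of the 6 passed the threshold, beside 0% of the 11726 genes tested (edgeR quasi-likelihood test, Benjamini-Hochberg adjusted). All 6 had lower fitted values with E2, with a median log2 fold change of −0.53, against −0.01 over all genes tested, of which 50.7% were lower. The summed level of the 9 markers was lower with E2 in each of the 4 suffixes, at 33.6 ± 12.4 CPM in E2 livers and 50.3 ± 17.2 CPM in vehicle livers (SD, n = 4 each), and the groups overlapped through E2 n2. The suffix was not read as a pairing in liver, so these differences do not stand for 4 matched pairs.

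Cd3e stood furthest apart in liver. It was at 2.73, 1.15, 3.60 and 2.20 CPM in E2 livers, against 6.21, 5.05, 6.55 and 7.67 CPM in vehicle livers. Every E2 liver was below every vehicle liver, the one such case among the 6 markers tested, beside 0.341% of all genes tested. The log2 fold change of Cd3e was −1.42 ± 0.45, with an unadjusted p of 0.00667 and an adjusted p of 0.939 (edgeR quasi-likelihood test, Benjamini-Hochberg adjusted). Cd3e was the 1 marker of 6 with an unadjusted p under 0.05, beside 4.28% of the genes tested, and DESeq2 and limma voom called none of the 6. The reads behind it were few, between 6 and 50 per library.

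The other CD3 genes did not share this pattern. Cd3d stood at 0.545, 5.32, 5.56 and 20.9 CPM in E2 livers, against 4.66, 4.94, 13.3 and 11.96 CPM in vehicle livers, and its groups overlapped with E2 n2 as the highest library. Its log2 fold change was −0.39 ± 0.50. Cd3g stood at 4.64, 3.13, 7.20 and 8.80 CPM in E2 livers, against 2.07, 2.52, 11.5 and 16.6 CPM in vehicle livers. Its n vehicle libraries were the highest, its o vehicle libraries the lowest, the groups overlapped, and the log2 fold change was −0.15 ± 0.44.

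Cd2 stood at 10.9, 15.3, 5.56 and 9.54 CPM in E2 livers, against 17.6, 19.6, 8.37 and 17.6 CPM in vehicle livers. It was lower with E2 in all 4 suffixes by 0.33 to 0.82 in log2(CPM + 1), which together with Cd3e makes 2 of the 6 tested markers that moved the same way in all suffixes, beside 12.7% of all genes tested. Liver libraries of the same suffix were not shown to be matched, so this count does not rest on 4 pairs. The groups overlapped for Cd2, and its log2 fold change was −0.66 ± 0.33. In both tissues the batch levels o1 and o2 each held 1 E2 and 1 vehicle library, so the fit compared these libraries within their suffix, and the 4 n libraries shared 1 level.

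Of the B cell genes in liver, Cd79a varied with the suffix letter. Cd79a stood at 1.36, 0.209, 2.29 and 5.50 CPM in E2 livers, against 0.517, 0.105, 6.73 and 7.05 CPM in vehicle livers. Its n libraries were above its o libraries in both groups, the groups overlapped, and the log2 fold change was −0.34 ± 0.63. Cd79b stood at 3.27, 1.04, 1.20 and 4.04 CPM in E2 livers, against 2.07, 5.36, 3.28 and 7.05 CPM in vehicle livers, with overlapping groups and a log2 fold change of −1.06 ± 0.61. The untested markers were low in both groups. Ms4a1 lay between 0 and 1.64 CPM in E2 livers and between 0.517 and 1.38 CPM in vehicle livers. Cd4 lay between 0.273 and 1.67 CPM in E2 livers and between 1.16 and 2.61 CPM in vehicle livers. Cd8a lay between 0.218 and 1.25 CPM in E2 livers and between 0 and 1.84 CPM in vehicle livers. The counts of 0 allow up to 1.10 CPM for Ms4a1 in E2 n2 and up to 0.315 CPM for Cd8a in vehicle o2.

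Other immune genes of liver also had mostly lower fitted values with E2. All 11 pan-leukocyte genes tested were lower with E2 (median log2 fold change −0.42), as were 15 of 16 macrophage genes (−0.34), 16 of 20 antigen receptor signalling genes (−0.26) and all 6 NK and cytotoxic cell genes (−0.39), and none passed over all genes. All 9 dendritic cell and MHC class II genes (−0.28) and all 5 neutrophil genes (−0.29) were lower. Other B cell genes had a median of −0.08 with 6 of 9 lower, and other T cell genes −0.16 with 5 of 7 lower. Hepatocyte genes were higher in 7 of 7 (0.20). The part of cell makeup in the marker values was not tested. The genes nearest to the mean of the 6 tested markers over the 8 liver libraries were Arhgap4 (root-mean-square difference 0.18), Vps29 (0.21), Dennd1c (0.23), Zfand3 (0.25), Gm10319 (0.25), Ube2b (0.25), 1110051M20Rik (0.26), Mis18a (0.27), Wars (0.27) and H2-Aa (0.28), of 11720 candidates, where the mean itself varied by 0.56.

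A term for tissue by treatment, fitted to all 16 libraries, asked whether E2 acted on the markers differently in aorta and in liver. None of the 9 markers passed, beside 0% of 14190 genes tested (edgeR quasi-likelihood test), none had an unadjusted p under 0.05, and DESeq2 and limma voom called none of them. The median difference of the log2 effects, aorta minus liver, was −0.93, with 7 markers lower and 2 higher, against 0.01 over all genes, of which 49.4% were lower. That median is the value of Ms4a1, and the 2 higher were Cd3e and Cd4. Ms4a1, Cd4 and Cd8a were too low to be tested within liver, so their differences rest on few liver reads. Without the vehicle aortas n2 and o2 that median was 1.08 with 9 of 9 higher and still none called. That fit kept only the lowest vehicle aortas, so its direction was largely set by the choice. With all libraries, 5.36% of all genes had an unadjusted p under 0.05. The lower fitted values in aorta than in liver were thus not shown to differ between the tissues.

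The levels of the markers in the tissues were compared in the vehicle libraries. Of the 8 markers tested, Cd8a passed the thresholds of an adjusted p under 0.05 and an absolute log2 fold change over 1, beside 47.5% of 12607 genes tested and 24.1% called higher. Cd8a was higher in aorta by 2.61 ± 0.86 (log2, SE), averaging 4.23 ± 4.68 CPM in aorta against 0.745 ± 0.796 CPM in liver (SD, n = 4 each), with an adjusted p of 0.0233 (edgeR quasi-likelihood test, Benjamini-Hochberg adjusted). Its reads in the vehicle livers were only 3, 0, 2 and 12, and Cd8a was too low to be tested within liver. The size of this difference thus rests on few liver reads. The groups overlapped, as they did for all 8, while 26.2% of the genes tested had groups that did not. The call of Cd8a was lost without the aorta n2 (adjusted p 0.152), the aorta o2 (0.0647), the liver o2 (0.0574) or the liver n1 (0.0547), and without either whole suffix o2 (0.0632) or n2 (0.0869), in the same edgeR quasi-likelihood test with Benjamini-Hochberg adjustment.

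The other markers did not pass between the tissues. Cd79a differed by 1.99 ± 0.99 and Cd4 by 0.71 ± 0.76 in log2, aorta over liver. The values were 0.29 ± 0.81 for Cd79b, −0.13 ± 0.65 for Cd3g, −0.15 ± 0.73 for Cd2, −0.17 ± 0.74 for Cd3d and −0.58 ± 0.78 for Cd3e. The median of the 8 was 0.08, against 0.05 over all genes, with 4 higher and 4 lower in aorta. Without the vehicle aorta n2, Cd3e was called lower in aorta, at −1.91 ± 0.68 with an adjusted p of 0.0402. Without the vehicle aortas n2 and o2, Cd3d (−2.65 ± 0.56), Cd3e (−2.60 ± 0.67) and Cd2 (−2.63 ± 0.62) were called lower in aorta and Cd8a (0.96 ± 0.83) was not called (edgeR quasi-likelihood test, Benjamini-Hochberg adjusted in each case). That choice kept only the lowest vehicle aortas, o1 and n1, so lower values in aorta were largely set by it.

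Levels of different markers can be set beside each other per length of annotated exons. The exons of all transcripts of a gene were pooled, from 1431 bases for Cd79b to 6187 bases for Ms4a1. This length can exceed that of the transcript present, so the order below depends in part on it. As CPM per kilobase of the union of annotated exons, Cd2 had the highest mean level in each group, at 3.69 in E2 aortas, 11.4 in vehicle aortas, 5.94 in E2 livers and 9.07 in vehicle livers. The o libraries carry this order: Cd2 was the highest of the 9 markers in all 8 o libraries and in 2 of the 8 n libraries, both of liver. In vehicle aorta n2, Cd79a (20.98), Cd3d (15.9) and Cd79b (14.4) stood above Cd2 (13.2), and in E2 aorta n1 Cd3d (3.61), Cd8a (2.14), Cd4 (2.04), Cd3g (1.59) and Cd3e (1.16) stood above Cd2 (0.934). Ms4a1 had the lowest mean level in each group, at 0.1196 in E2 aortas, 0.230 in vehicle aortas, 0.105 in E2 livers and 0.140 in vehicle livers. Between them in vehicle aorta lay Cd79a (7.26), Cd3d (5.47), Cd79b (4.63), Cd3g (1.95), Cd3e (1.35), Cd8a (1.16) and Cd4 (0.924). Neighbours in this order were not tested against each other. The SD of the CPM over the 4 libraries exceeded the mean for 8 of the 9 genes, all but Cd3g. The genes were read in the same libraries, so this SD does not measure how far 1 gene differs from another. In vehicle liver Cd3d (4.799) and Cd79b (3.10) came after Cd2, and Cd4 (0.404) and Cd8a (0.205) came before Ms4a1.

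The levels of part of the markers differed with the suffix letter. In aorta 3 of the 9 markers were called between n and o libraries, all higher in n: Cd79b, Cd4 and Cd8a. Beside this, 61% of the 13698 genes tested were called and 33% were called higher (edgeR quasi-likelihood test, Benjamini-Hochberg adjusted, and an absolute log2 fold change over 1). Fitted values were higher in n aortas for 7 of the 9 markers. They were lower for Ms4a1 (log2 fold change −2.05 ± 1.05) and Cd2 (−1.99 ± 0.86), and neither was called. The n and o aortas did not overlap for Cd4 and Cd8a, 2 of the 9 markers, beside 66% of all genes tested, and the share of markers called was below the share of all genes. In liver 3 of the 6 markers tested, Cd79a, Cd3d and Cd3g, were called and were higher in n libraries, with no overlap between n and o libraries, beside 69.5% of the 11726 genes called, 33.7% called higher and 71.4% without overlap. Cd2 was the 1 marker of 6 with a lower fitted value in n livers (−0.72 ± 0.34), and it was not called. The E2 effect in n libraries minus that in o libraries of aorta gave no call for any of the 9 markers, beside 0% of the genes tested, of which 0.723% had an unadjusted p under 0.05.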

How the data were processed

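RNA was measured by sequencing. The deposited table holds estimated counts of reads per gene symbol, which the authors made with Bowtie 0.12.5 on mouse build mm9 and HTSeq 0.4.5p7, per the submitters' processing notes, which also name edgeR 3.4.2. No source used here names the strand setting, annotation or filters. The unit is entered as an estimated count because every column closes with a percentage. The 24011 gene values of each column were all whole numbers, and rounding left them as they were. The 8 lines without a gene were left out, and reads in no feature made up 48.0% to 75.2% of a library. Precursor ribosomal RNA, Rn45s, took 25.7% to 34.5% of gene counts in liver o libraries and no more than 6.20% elsewhere.

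Tests used edgeR 4.0.16 under R 4.3.3 (glmQLFit and glmQLFTest, TMM, filterByExpr with a minimum count of 10 and a minimum total of 15). P-values were Benjamini-Hochberg adjusted over all genes tested, with a threshold of 0.05. The fits within a tissue used its 8 libraries with a batch of 3 levels (o1, o2, n), so o1 and o2 each held 1 E2 and 1 vehicle library. The levels copy a division in the labels, with different instruments within 1 kit and a single level for the other kit. No label ties the suffixes to that division, so the batch is an assumption. Errors are SE, the absolute log2 fold change over the square root of F, or SD over 4 libraries. Pair differences use log2(CPM + 1). Exon lengths come from GENCODE. Alternatives were DESeq2 1.42.0, limma 3.58.1 voom, other filters, RLE, and leaving out libraries. The scripts were tested on simulated data.

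The markers, the 18 other gene lists and the rules were chosen with earlier results of these data known. The text names all 9 markers, up to 3 genes of a list with the highest mean CPM in a tissue, and the 10 genes most like the markers. Nothing in the labels says that all libraries of a group came from separate animals, so p-values measure the spread between these libraries only, which may be technical. No pair of libraries agreed within sampling noise (lowest chi-square per degree of freedom 10.2). For pairing, deviations from the group mean were correlated across genes between libraries of the same suffix: r was 0.91, 0.93, 0.92 and 0.89 in aorta and 0.92, 0.87, 0.92 and 0.88 in liver. With the mean of the letter removed r was 0.51 (o) and 0.44 (n) in aorta and 0.30 and −0.06 in liver, so a block over all 4 suffixes was read as a pairing in aorta only.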

Additional observations from a re-analysis of the deposited data

Results flagged for a closer look

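In groups of 4 libraries, 52 sets of a marker or a summed marker level were examined for a library far from the others (the gap to its neighbour over the group's range, against Dixon's 95% limit), and 4 stood out. Chance marks about 1 in 20 sets of independent, normally distributed values. These sets share libraries and markers, so that rate does not hold for them. The 3 flags in vehicle aorta n2 come from the same library and are not separate. In vehicle aorta the library n2 stood far above the other 3 for Cd79b (20.6 CPM), Cd4 (11.2 CPM) and Cd8a (11.2 CPM). In E2 liver the summed level of the 9 markers stood far above the rest in n2, at 52.1 CPM. The library n2 of E2 liver is the shallowest of the 16, with 3896733 gene counts.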

How the results depend on the processing

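None of the 9 markers was called for E2 against vehicle, in either tissue or between them, under any alternative. In aorta the number of genes called, 0 with all libraries, was 24 with DESeq2, 12 with the replicate block, 33 in the o libraries alone and 7 with the markers as a covariate, and leaving out libraries gave 0 to 35. The median of the markers was 0.85 without the vehicle aortas n2 and o2, where Cd79a stood at 0.63, Ms4a1 at 0.85, Cd3d at 1.06, Cd3e at 1.15, Cd3g at 0.56, Cd4 at 1.26, Cd8a at 0.93 and Cd2 at 0.28. Here and below, fits without these libraries kept only the lowest vehicle aortas, so their directions were largely set by the choice. Cd4 stood at 0.061 with limma voom, and in the o libraries alone Ms4a1 stood at 0.041 and Cd3e at 0.45. Leaving out single libraries or suffixes gave −1.94 to 0.29 for Cd3d, −1.15 to 0.83 for Cd3e, −1.36 to 0.22 for Cd3g, −1.33 to 0.86 for Cd4 and −1.18 to 0.51 for Cd8a. The same fits gave −3.43 to −0.43 for Cd79a, −2.82 to −0.65 for Cd79b, −2.48 to −0.16 for Ms4a1 and −2.72 to −0.52 for Cd2.

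In liver 6 genes were called with no filter on low counts, 5 in the o libraries alone, 1 in the n libraries alone, and 0 to 1 with libraries left out. Cd3g stood at 0.73 in the o libraries alone. With libraries left out the median ran from −1.04 to −0.32, Cd79a from −0.68 to 0.23, Cd3d from −1.04 to 0.039 and Cd3g from −0.47 to 0.22. For the difference between tissues 12 genes were called with DESeq2, 1 with the replicate block, 2 in the o libraries alone, 1 without the vehicle aortas n2 and o2 (median of the markers 1.08), and 0 to 4 with libraries left out.

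Between vehicle aorta and vehicle liver, 2 markers were called with DESeq2 or without a filter, 0 at a minimum count of 30 or in the o or n libraries alone, 3 without the vehicle aortas n2 and o2 (median −1.65), and 0 to 2 with libraries left out (median −1.30 to 0.49). Cd79b stood at −0.57 with limma voom, −0.31 with the replicate block, −0.69 in the o libraries alone and −1.35 without the vehicle aortas n2 and o2, where Cd79a stood at −1.55 and Cd4 at −0.46. Cd3g stood at 0.016 without Rn45s and 0.93 in the o libraries alone, and in the n libraries alone Cd3d stood at 0.24 and Cd3e at 0.21. Leaving out libraries gave −1.66 to 0.49 for Cd3d, −1.91 to 0.18 for Cd3e, −1.44 to 0.45 for Cd2, −0.72 to 0.46 for Cd3g, −1.30 to 0.91 for Cd79b and −0.28 to 1.25 for Cd4. Between n and o libraries 1 marker was called in liver at a minimum count of 30, and 1 to 4 in aorta with libraries left out, where the E2 effect between n and o gave 0 to 1 genes. The cause was not tested, except that fits without libraries hold fewer samples. Low counts limit Ms4a1, Cd4 and Cd8a in liver. The replicate block changed no other call.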
